A study of Mus musculus with 9 samples.

Results

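The collagen genes of the mouse were described in brown fat cells treated with AM73, AM80 or the solvent DMSO. They were chosen by symbol, as every gene whose symbol is Col, a number, the letter a and a number, with the transcript cluster of the highest mean kept where a gene had several. This gave 44 genes of the 30860 genes measured, none of them (0) with probes that the array annotation gives as cross-hybridising. By class, 11 encode chains of fibrillar collagens, 6 chains of the type IV collagen of basement membranes and 27 chains of other collagens.

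The cells were fully differentiated brown fat cells of C57BL/6 mice in culture. They were exposed for 8 h to 10 µM AM73, to 10 µM AM80 or to DMSO, and the title of the study calls the compounds activators of PPARGC1a1. Each of the 3 groups holds 3 whole-transcript arrays, which the labels call technical replicates. No label says whether they come from separate cultures, so the p-values measure only the spread between these arrays, and their small number bounds how precise any value can be. All levels are log2 expression values. In such bulk RNA, fewer cells of a type and less RNA per cell cannot be told apart.

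Collagen chains wind into helical trimers that are modified in the endoplasmic reticulum, exported, trimmed and cross-linked outside the cell. Fibrillar collagens such as types I, III and V form the banded fibrils of connective tissue. Type IV collagen forms the sheet of the basement membrane that surrounds each fat cell, and type VI collagen forms beaded filaments between that membrane and the fibrils and is an abundant matrix protein of fat tissue. Type XII collagen sits on the surface of fibrils, and types XV and XVIII are proteoglycan-bearing collagens of basement membrane zones.

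The genes of the main chains of types IV and VI carry the results below, and their start sites are shown for that reason. Col4a1 and Col4a2 lie head to head on chromosome 8, with annotated spans on mm10 of 11198423 to 11312826 on the minus strand and 11312805 to 11449287 on the plus strand, an overlap of 22 bases. Their promoter windows, from 250 bases before to 50 after the start in RefSeq (GRCm38.p6), are chr8:11312777-11313076 on the minus strand and chr8:11312555-11312854 on the plus strand. Capitals mark the 78 bases from 11312777 to 11312854 that both windows hold, each written 5′ to 3′ on its own gene's strand.
Col4a1: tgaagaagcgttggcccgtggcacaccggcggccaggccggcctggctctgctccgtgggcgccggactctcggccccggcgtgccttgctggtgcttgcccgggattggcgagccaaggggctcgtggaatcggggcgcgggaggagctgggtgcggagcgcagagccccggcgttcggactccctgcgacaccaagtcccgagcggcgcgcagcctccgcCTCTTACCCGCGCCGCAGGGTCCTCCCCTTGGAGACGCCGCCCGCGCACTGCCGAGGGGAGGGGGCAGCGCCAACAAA
Col4a2: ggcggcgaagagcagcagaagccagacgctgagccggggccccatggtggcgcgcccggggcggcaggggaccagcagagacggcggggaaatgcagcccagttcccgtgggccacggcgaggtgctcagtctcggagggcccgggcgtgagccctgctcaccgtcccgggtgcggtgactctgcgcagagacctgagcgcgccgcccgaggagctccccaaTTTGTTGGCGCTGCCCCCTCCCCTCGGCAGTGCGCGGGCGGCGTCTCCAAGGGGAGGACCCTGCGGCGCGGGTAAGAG

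Col6a2 and Col6a1 lie in the same direction on the minus strand of chromosome 10, at 76595756 to 76623630 and 76708792 to 76726168 on mm10, 85161 bases apart. Their windows, chr10:76725995-76726294 for Col6a1 and chr10:76623355-76623654 for a start of Col6a2, both on the minus strand in GRCm38.p6, are shown with matches to GGGCGG or its reverse complement CCGCCC in capitals.
Col6a1: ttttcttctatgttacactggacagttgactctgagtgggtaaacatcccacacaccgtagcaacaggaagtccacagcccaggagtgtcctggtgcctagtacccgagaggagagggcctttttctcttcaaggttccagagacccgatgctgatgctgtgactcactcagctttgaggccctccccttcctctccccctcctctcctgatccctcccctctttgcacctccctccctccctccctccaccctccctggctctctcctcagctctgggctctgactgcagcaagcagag
Col6a2: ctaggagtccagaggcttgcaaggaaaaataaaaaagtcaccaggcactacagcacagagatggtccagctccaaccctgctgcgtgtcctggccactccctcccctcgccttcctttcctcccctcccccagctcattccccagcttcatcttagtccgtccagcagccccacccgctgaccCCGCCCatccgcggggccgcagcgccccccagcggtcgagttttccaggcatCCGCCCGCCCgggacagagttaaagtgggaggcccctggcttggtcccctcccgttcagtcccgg

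The Col6a1 window held 0 matches to that motif, the Col6a2 window shown held 3, of which 2 overlap, and the Col4a1 and Col4a2 windows held 1 and 3. RefSeq windows were at hand for 35 of the 44 genes, 38 windows in all, and not for Col1a1, Col2a1, Col4a3, Col5a2, Col9a3, Col12a1, Col14a1, Col22a1 and Col26a1. Counted on both strands, GGGCGG was present in 23 of the 38 windows. That is 60.5%, against 35.7% of 32851 windows of the same length, here called all windows. They leave out 1 chromosome, which holds none of the 44 genes. The 38 are not all separate: the Col4a1 match lies in the bases shared with Col4a2 and counts in both, and the Col6a2 windows overlap. TATAAA was present in 5 of the 38 (13.16%, against 13.6% of all windows) and CCAAT in 13 (34.2%, against 37.4%). ACGTG was present in 5 (13.16%, against 19.6%) and GCGTG in 10 (26.3%, against 32.4%). A match describes the letters of a window and is neither a site nor a cause.

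The arrays bear on every direction below. Within-group correlations across genes ran from 0.982 to 0.992, and no pair (0) of arrays was identical. The probe sets of the array's poly-A controls, RNAs that are normally added before labelling, lay at a log2 level of 4.66 ± 0.16 in DMSO, 4.37 ± 0.30 in AM73 and 5.50 ± 0.33 in AM80 (SD, n = 3 each). The 6 brightest antigenomic background probe sets lay at 5.58 ± 0.37, 5.04 ± 0.49 and 5.91 ± 0.21. Each rise or fall reported here is therefore a change against most genes of that array. Scaling the arrays to the poly-A controls in place of the deposited normalization moved all genes by 0.29 for AM73 minus DMSO and by -0.84 for AM80 minus DMSO. The part of these controls in the results was not tested. The columns of the arrays have names that end in a number with no stated meaning. It is 5 on the 3 AM80 arrays, on DMSO replicate 2 and on AM73 replicate 2, and 7 on the other 4.

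The label of brown fat cells was checked against marker genes. Adipoq, which encodes the fat cell hormone adiponectin, stood at a log2 level of 9.15 ± 0.04 in DMSO, 9.04 ± 0.16 in AM73 and 9.50 ± 0.13 in AM80 (SD, n = 3 each), and Ucp1, the uncoupling protein of brown fat, at 3.97 ± 0.53, 6.13 ± 0.44 and 5.90 ± 0.17. Of 10 brown fat cell markers, 3 had a mean under 4: Dio2, Cox8b and Ppara, at 2.13, 2.96 and 3.13 in DMSO. Ucp1 rose with both compounds and 1 marker fell with AM80, Ppargc1a, a coactivator of brown fat genes (difference -1.66; limma adjusted p = 0.00237). With AM80 that is 10% each way, against 6.90% and 7.04% of all genes. With AM73 it is 10% that rose, against 0.104% of all genes. Of 10 general fat cell markers, of which 0 had a mean under 4, 0 passed with AM73, while with AM80 2 rose (20%) and 3 fell (30%). Of all genes with a mean of at least 4, 18.8% rose and 19.7% fell. Cebpa and Cfd rose by 0.64 and 0.86. The falls were those of Cd36, Pparg and Lpl, with differences of -1.43, -0.91 and -0.56 (limma adjusted p from 0.00256 to 0.0137), and the part of these changes in the collagen values was not tested. The markers of endothelial cells, another maker of type IV collagen, had a mean under 4 in 9 of 10 genes, and those of macrophages in 8 of 9, with 0 of either list past the test in any comparison. Summed on a linear scale, the 10 endothelial markers ran from 61.96 to 64.13 in DMSO, from 56.2 to 70.7 in AM73 and from 64.8 to 76.4 in AM80, and Cdh5, which defines these cells, had a mean of 2.49, 2.43 and 2.68. The 14 markers of preadipocytes and fibroblasts, which make most fibrillar collagen in fat tissue, summed to 2025 to 2356 in DMSO, 2454 to 2805 in AM73 and 2340 to 2936 in AM80. Most of that sum is Vim alone, at 10.58, 10.95 and 11.06 on the log2 scale, and 6 of the 14 had a mean under 4. Pdgfra stood at 4.79, 4.79 and 4.80, and Pdgfrb at 4.76, 4.66 and 4.79, so the sum is no measure of fibroblast content.

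Of the 44 collagen genes, 14 had a mean over the 9 arrays of at least 4, a limit set after the values were seen, and 30 lay under it, between 2.11 and 3.95. The array medians of the antigenomic background probe sets lay between 2.07 and 2.32. The 14 were 6 fibrillar genes, 3 of type IV, 3 of type VI, Col12a1 and Col15a1. No ranking between genes was made, because probes differ in their brightness. Among the 44, 13 had the same value on at least 4 of the 9 arrays, 11 of them with a mean under 4, so their spread between arrays is not that of a free measurement. Col19a1 stood at 2.17 on 8 of its 9 arrays. For the 14 with a mean of at least 4, the pooled SD within groups ran from 0.0872 to 0.366 with a median of 0.143.

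**Figure D1:**
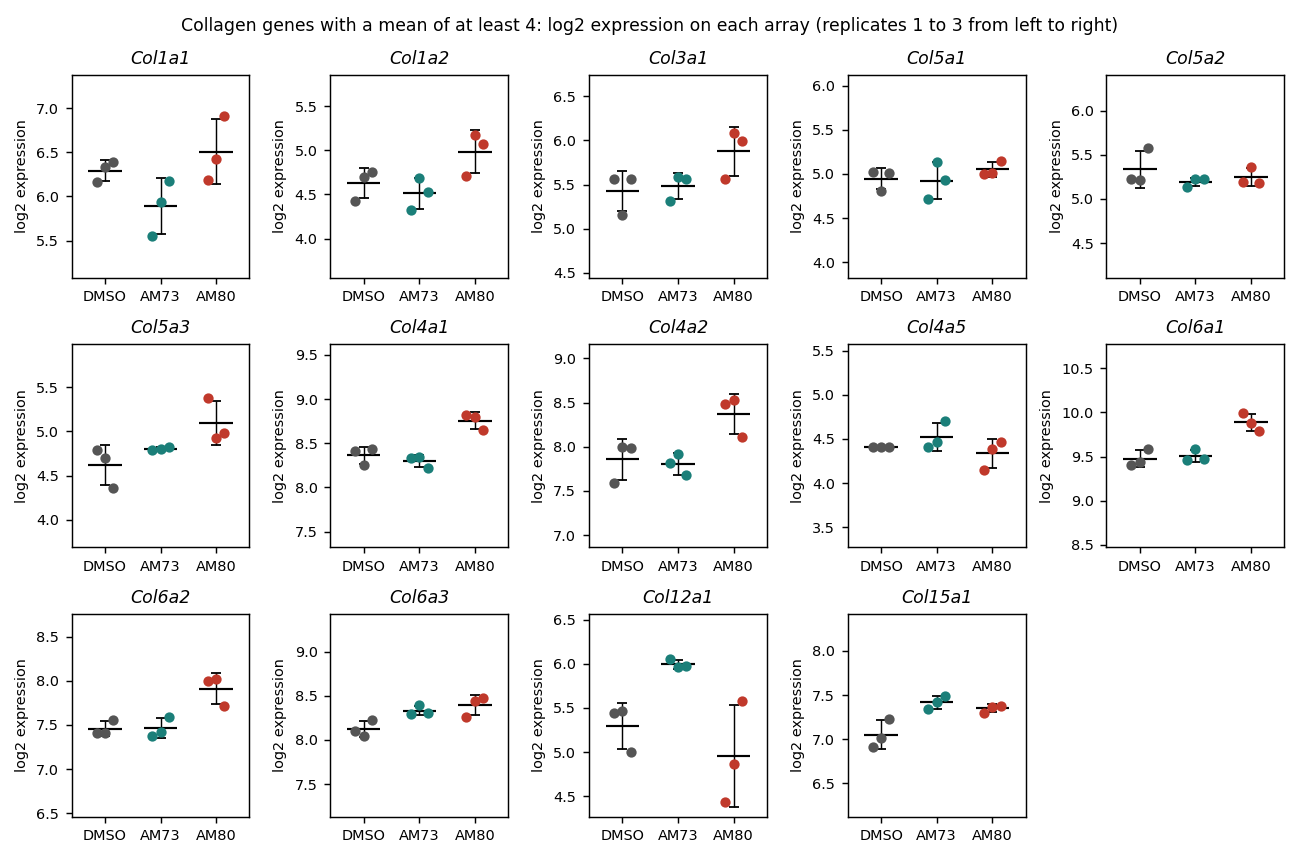
Log2 expression (y axis, of the same height in log2 units in every panel) of the 14 collagen genes with a mean of at least 4 in DMSO, AM73 and AM80 (x axis). Points are arrays, replicates 1 to 3 from left to right, lines are group means and bars SD. In Col4a1, Col6a1 and Col6a2 all 3 AM80 arrays lie above all DMSO arrays, and scaling to the poly-A controls turns these differences to lower. In Col12a1 the 3 AM73 arrays lie together between 5.96 and 6.05.

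The comparison of AM80 with DMSO asked which collagen genes the compound moved within 8 h. AM80 raised Col4a1, which encodes the α1 chain of type IV collagen, and Col6a1 and Col6a2, which encode chains of type VI collagen, by 1.31-, 1.33- and 1.37-fold relative to the bulk of genes. None of the other 41 passed limma's test at an adjusted p of 0.05, in either direction. The 3 of 44 that rose make 6.82%, against 6.90% of all 30860 genes that rose, and the 0 that fell compare with 7.04% of all genes that fell. The share that rose was thus near that of all genes. With arrays scaled to the poly-A controls, 0 rose and 32 fell of the 44, against 24 that rose and 24198 that fell among all genes.

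Without regard to the test, all 3 AM80 arrays lay above all 3 DMSO arrays in 10 of the 44 collagen genes, which is 22.7%, against 14.9% of all genes, and below them in 0, against 10.6%. The median difference was 0.12 over the 44 and 0.04 over all genes, both on the log2 scale. Among the 14 with a mean of at least 4, 7 lay wholly above DMSO, against 32.4% of all genes that bright, and 0 below, against 24.2%. Their median difference was 0.33 against 0.09. Of the 14, 3 rose, against 18.8% of genes that bright, and 0 fell, against 19.7%.

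Type VI collagen held 2 of the 3 genes that rose, and the median difference of its 6 genes was 0.29. Col6a1 stood at 9.40, 9.44 and 9.59 on the DMSO arrays and at 9.99, 9.88 and 9.79 on the AM80 arrays. The lowest AM80 array lay above the highest DMSO array. The difference was 0.41 ± 0.11 on the log2 scale (SE; 95% interval 0.17 to 0.65; limma adjusted p = 0.0295), and it turned to -0.43 with poly-A scaling. Col6a2 stood at 7.41, 7.41 and 7.56 in DMSO and at 8.00, 8.02 and 7.71 in AM80, again without overlap. Its difference was 0.45 ± 0.12 (SE; 95% interval 0.18 to 0.72; limma adjusted p = 0.0345), and it turned to -0.39 with poly-A scaling.

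Col6a3, which encodes the long α3 chain whose end is cut off as endotrophin, did not pass the test. It stood at 8.10, 8.04 and 8.22 in DMSO and at 8.26, 8.44 and 8.47 in AM80. The groups did not overlap and the difference was 0.27 (95% interval 0.04 to 0.50; limma adjusted p = 0.132). Col6a4, a further chain of this class, had values near the background, at 2.25, 2.15 and 2.25 in DMSO and 2.57, 2.53 and 2.50 in AM80, with a difference of 0.32 (limma adjusted p = 0.0503). The remaining Col6a5 and Col6a6 lay under 4 and their groups overlapped.

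In type IV collagen, whose 6 genes had a median difference of 0.06, Col4a1 stood at 8.41, 8.25 and 8.43 in DMSO and at 8.82, 8.80 and 8.65 in AM80. The AM80 arrays lay wholly above, with a difference of 0.39 ± 0.10 (SE; 95% interval 0.16 to 0.63; limma adjusted p = 0.0328) that turned to -0.45 with poly-A scaling. Col4a2, its partner in the trimer and across the shared start region shown above, stood at 7.59, 8.00 and 7.99 in DMSO and at 8.48, 8.53 and 8.11 in AM80. These groups did not overlap either, and the point estimate was larger, at 0.51 ± 0.16 (SE; 95% interval 0.16 to 0.86), but it did not pass the test (limma adjusted p = 0.0567). Without AM80 replicate 3 the difference of Col4a2 was 0.65 and passed (limma adjusted p = 0.0208). No other removal of 1 array made Col4a2 pass, with a limma adjusted p of up to 0.209. The other head-to-head pairs of this class, Col4a4 with Col4a3 on chromosome 1 and Col4a6 with Col4a5 on chromosome X, had differences of 0.05, 0.08, -0.17 and -0.07, and of these only Col4a5 had a mean of at least 4.

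The 3 calls depended on single arrays. Col4a1, Col6a1 and Col6a2 were each past the test without DMSO replicate 3, without AM73 replicate 3 and without AM80 replicate 3. None of the 3 (0) was past it without DMSO replicate 1 or 2 or without AM80 replicate 1 or 2. Without AM73 replicate 1 only Col6a1 was past it, and without AM73 replicate 2 Col6a1 and Col4a1 were. Over the 44 genes the count of calls ran from 0 to 6 with 1 array left out, and it was 6 without AM80 replicate 3, of which 5 rose and 1 fell. With the number of the array names as a term, the differences were 0.39, 0.43 and 0.50 for Col6a1, Col4a1 and Col6a2, with limma adjusted p of 0.146, 0.105 and 0.104. Within the arrays of number 5, which hold 1 DMSO array, they were 0.45, 0.51 and 0.50 (limma adjusted p = 0.341, 0.321 and 0.382, with that array assumed to vary like the rest), and 0 of all 30860 genes were called there, with 4256 at an unadjusted p under 0.05. By the authors' deposited table their q-values were 0.138, 0.138 and 0.145.

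**Figure D2:**
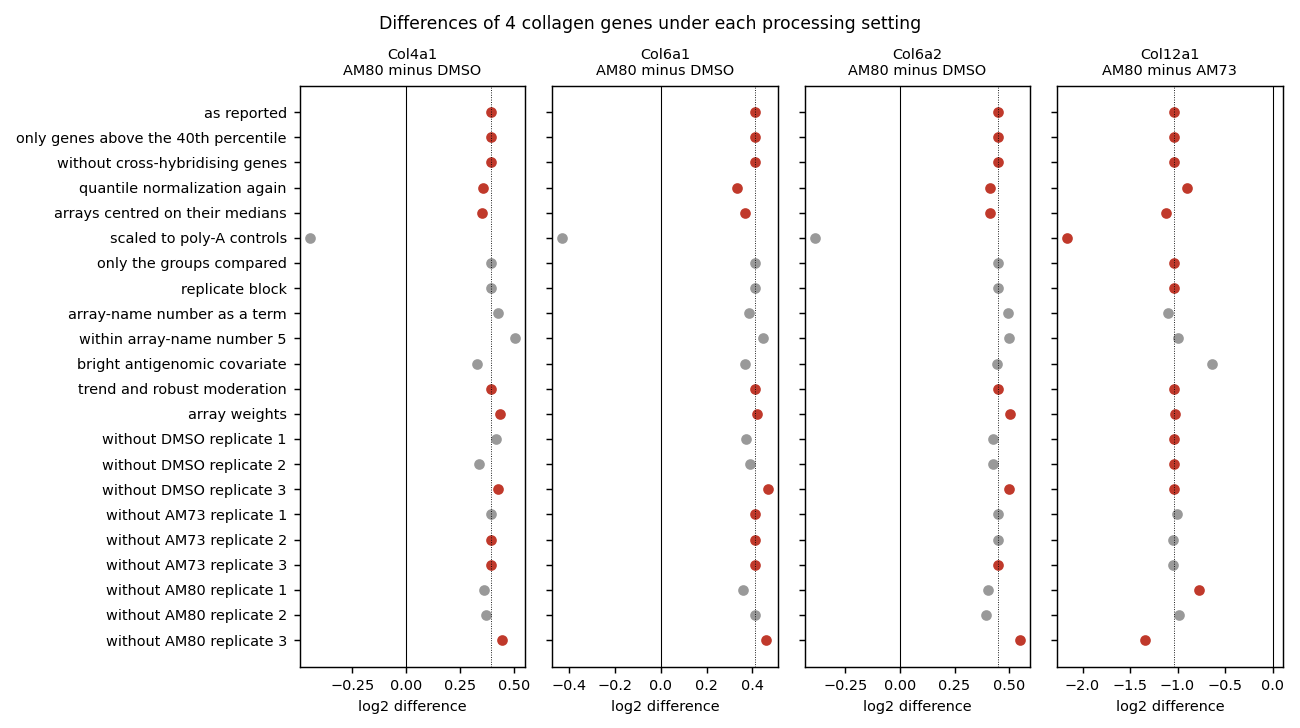
Log2 differences (x axes, which differ between panels) of Col4a1, Col6a1 and Col6a2 for AM80 minus DMSO and of Col12a1 for AM80 minus AM73 under each processing setting (y axis). Red points have an adjusted p under 0.05 and grey points do not, and the dotted line is the value as reported. The first 3 genes stay between 0.33 and 0.55 in every setting drawn except scaling to the poly-A controls, where they lie between -0.45 and -0.39, while Col12a1 stays below 0 throughout.

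None of the 11 fibrillar genes passed the test with AM80. Their differences ran from -0.14 to 0.48 with a median of 0.14, and 2 of the 11 (18.2%) lay wholly above DMSO, against 14.9% of all genes. The type I genes were Col1a1, at 6.16, 6.33 and 6.39 in DMSO and 6.19, 6.42 and 6.91 in AM80, and Col1a2, at 4.43, 4.70 and 4.75 in DMSO and 4.71, 5.17 and 5.07 in AM80. Both overlapped between groups, with differences of 0.21 (95% interval -0.24 to 0.67; limma adjusted p = 0.619) and 0.36 (0.01 to 0.70; limma adjusted p = 0.186). Col3a1, of type III, stood at 5.56, 5.16 and 5.56 in DMSO and at 5.56, 6.08 and 5.99 in AM80, so that 1 AM80 array equalled 2 DMSO arrays (difference 0.45; 95% interval 0.07 to 0.83; limma adjusted p = 0.122). Without AM80 replicate 1 it was 0.61 and passed (limma adjusted p = 0.0494). Col3a1 passed with no other array left out, and its limma adjusted p then reached up to 0.359.

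Type V collagen, which sets the width of type I fibrils, had differences of both signs. Col5a1 and Col5a2 had differences of 0.11 (95% interval -0.18 to 0.39) and -0.09 (-0.37 to 0.18), with overlapping groups. Col5a3, named after its values were seen, stood at 4.79, 4.70 and 4.36 in DMSO and at 5.38, 4.93 and 4.98 in AM80, without overlap, with a difference of 0.48 (95% interval 0.14 to 0.82; limma adjusted p = 0.0661). The neighbours Col3a1 and Col5a2, which lie tail to tail on chromosome 1 with 24614 bases between them, differed in sign. The other 5 fibrillar genes had means under 4.

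Of the multiplexins, Col15a1 stood at 6.91, 7.01 and 7.23 in DMSO and at 7.30, 7.37 and 7.38 in AM80, with a difference of 0.30 that did not pass (95% interval 0.05 to 0.55; limma adjusted p = 0.116). Without DMSO replicate 3 it was 0.39 and passed (limma adjusted p = 0.0453). With any other array left out it did not pass, with a limma adjusted p of up to 0.347. Col18a1, whose protein is the source of endostatin, stood at 3.68, 3.67 and 3.77 in DMSO and at 4.71, 4.46 and 3.77 in AM80. Thus 2 AM80 arrays lay high and the other equalled the highest DMSO array, and the difference of 0.61 (95% interval 0.15 to 1.06) did not pass (limma adjusted p = 0.0805). Without AM80 replicate 3 it was 0.88 with a limma adjusted p of 0.00243. This was the only removal of 1 array with which Col18a1 passed, and the limma adjusted p ran up to 0.238 in the others. Col12a1 stood at 5.44, 5.46 and 5.0 in DMSO and at 4.44, 4.86 and 5.58 in AM80, a spread within AM80 wider than the difference of -0.34 (95% interval -0.90 to 0.22; limma adjusted p = 0.487). It was -0.65 and passed without AM80 replicate 3 (limma adjusted p = 0.0380). With any other array left out Col12a1 did not pass, with a limma adjusted p of up to 0.907. The 20 genes of the other classes that are not named by rule, among them those of transmembrane, short chain network and anchoring fibril collagens, had means of at most 3.48 and differences from -0.23 to 0.29, with a smallest limma adjusted p of 0.334.

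With AM73, 0 of the 44 collagen genes passed limma's test, against 0.120% of all genes called. An unadjusted p under 0.05 was found in 3 of the 44, against 2363 of all 30860 genes. The count past the test was 0 under every other setting run, except the methods' t-test without adjustment. That gave 3, against 2013 of all genes. The median difference was -0.08 over the 44 and -0.02 over all genes. AM73 lay wholly above DMSO in 3 of the 44 (6.82%, against 5.71% of all genes) and wholly below in 1 (2.27%, against 6.87%).

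The 3 genes wholly above DMSO were Col6a3, Col12a1 and Col15a1. Col12a1 stood at 6.05, 5.96 and 5.97 in AM73 against 5.44, 5.46 and 5.0 in DMSO, a difference of 0.69 (95% interval 0.13 to 1.25; limma adjusted p = 0.582). Col15a1 stood at 7.34, 7.42 and 7.49 in AM73 against 6.91, 7.01 and 7.23 in DMSO, a difference of 0.37 (95% interval 0.12 to 0.62; limma adjusted p = 0.464). Col6a3 stood at 8.29, 8.39 and 8.31 in AM73, above its DMSO arrays given before, with a difference of 0.21 (95% interval -0.02 to 0.44; limma adjusted p = 0.681). The AM73 arrays of Col12a1 lay closer to each other than those of either other group. Within the arrays of number 5 the differences of Col12a1, Col15a1 and Col6a3 were 0.50, 0.41 and 0.35, and within number 7 they were 0.79, 0.35 and 0.14, with 0 past the test in either.

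For the genes that rose with AM80, AM73 gave values near DMSO, with which both compounds were compared on the same 3 arrays. Col6a1 stood at 9.46, 9.59 and 9.47 in AM73, Col6a2 at 7.38, 7.42 and 7.59, and Col4a1 at 8.33, 8.34 and 8.22. Their differences from DMSO were 0.03 (95% interval -0.21 to 0.27), 0.00 (-0.27 to 0.27) and -0.07 (-0.30 to 0.17). In the type I genes, Col1a1 stood at 5.55, 5.94 and 6.18 in AM73, with a difference of -0.40 (95% interval -0.86 to 0.05; limma adjusted p = 0.686), and Col1a2 at 4.32, 4.68 and 4.53, with a difference of -0.12. Col1a1 overlapped with DMSO by 1 array. The 30 genes not named by rule had differences between -0.30 and 0.23 with AM73.

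**Figure D3:**
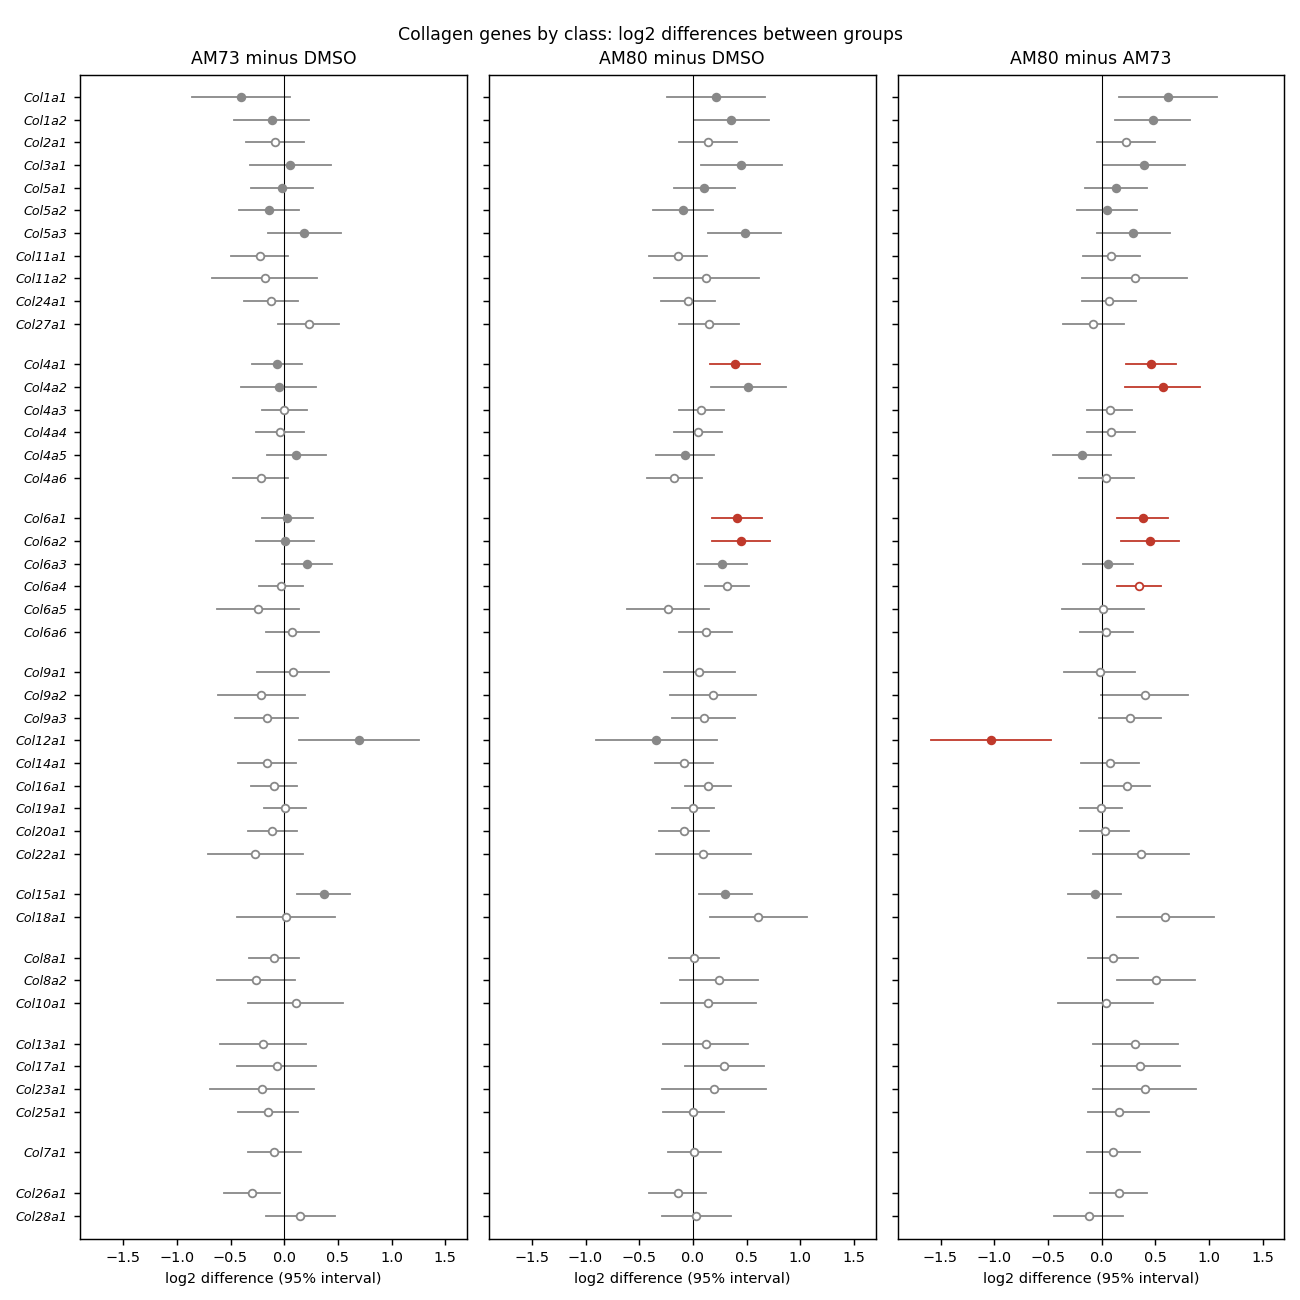
Log2 differences (x axes) of all 44 collagen genes (y axis) for AM73 minus DMSO, AM80 minus DMSO and AM80 minus AM73, with 95% intervals of the limma fit as bars. Blocks from top to bottom are fibrillar, basement membrane, beaded filament, FACIT, multiplexin, short chain network, transmembrane, anchoring fibril and unclassed collagens. Red marks an adjusted p under 0.05 and open points a mean under 4. There are 0, 3 and 6 red genes in the 3 panels, and the calls to the right of 0 lie to the left of it with poly-A scaling.

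AM80 and AM73 were given at the same dose and time, so they were also compared directly, as 1 pair of compounds, with p-values adjusted over all genes. Relative to the bulk of genes, 5 of the 44 were higher with AM80 (Col4a1, Col4a2, Col6a1, Col6a2 and Col6a4) and 1 was lower (Col12a1). That is 11.4% and 2.27%, against 9.92% and 9.22% of all genes. With poly-A scaling 0 were higher and 41 lower, against 7 and 28175 of all 30860 genes. With arrays centred on their medians 1 was higher and 1 lower, against 2209 and 3215 of all genes. The AM80 arrays lay wholly above those of AM73 in 13 of the 44 (29.55%, against 18.9% of all genes) and below them in 1 (2.27%, against 12.7%). The count of calls fell from 6 to 2, 3 and 2 without AM73 replicate 1, 2 and 3, and to 1 without AM80 replicate 2. Among all genes the calls fell from 5907 to 4769, 4461 and 4164, and to 4528.

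The largest of these differences was that of Col12a1, whose protein links fibrils to the matrix around them. Its AM80 arrays lay wholly below those of AM73, with a difference of -1.03 ± 0.25 (SE; 95% interval -1.59 to -0.47; limma adjusted p = 0.0164), a 2.05-fold difference. The sign was the same with poly-A scaling. With the array-name number as a term it was -1.10 (limma adjusted p = 0.0628), and it was not past the test without any 1 of the AM73 arrays or without AM80 replicate 2 (limma adjusted p from 0.0503 to 0.0611).

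Both genes of the main type IV trimer were higher with AM80 than with AM73. Col4a1 differed by 0.46 ± 0.10 (SE; 95% interval 0.23 to 0.69; limma adjusted p = 0.0117) and Col4a2, at 7.82, 7.92 and 7.68 in AM73, by 0.57 ± 0.16 (0.22 to 0.92; limma adjusted p = 0.0296). Col4a1 was past the test whichever array was left out. Within the arrays of number 5 its difference was 0.42 (limma adjusted p = 0.256), and with poly-A scaling it was -0.67.

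In type VI, Col6a1 differed by 0.38 ± 0.11 (SE; limma adjusted p = 0.0305), Col6a2 by 0.45 ± 0.12 (SE; limma adjusted p = 0.0270) and the dim Col6a4 by 0.35 ± 0.09 (SE; limma adjusted p = 0.0268), and all 3 turned to lower with poly-A scaling. Col6a3 differed by 0.06 (95% interval -0.17 to 0.29), with overlapping groups. Whether Col6a3 differs from Col6a1 in its response was not tested. The type I genes Col1a1 and Col1a2 lay wholly above AM73 by 0.62 (95% interval 0.16 to 1.07) and 0.47 (0.13 to 0.82), and neither passed the test (limma adjusted p = 0.0642 and 0.0618). Col18a1 was higher by 0.59 (95% interval 0.14 to 1.04; limma adjusted p = 0.0726), and by 0.86 without AM80 replicate 3 (limma adjusted p = 0.00152). No other removal of 1 array made Col18a1 pass, with a limma adjusted p of up to 0.215. Col15a1 differed by -0.07 (95% interval -0.32 to 0.18).

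More was called among the genes that modify collagen chains. Of 16 chain modification genes 2 rose with AM73 (12.5%, against 0.104% of all genes) and 9 with AM80 (56.2%), with 0 falls. For AM80 this compares with 6.90% of all genes that rose and 18.8% of those with a mean of at least 4. Their median difference was 0.11 with AM73 and 0.51 with AM80, against -0.02 and 0.04 over all genes, and over the 7 other lists the medians ran from -0.10 to 0.15 and from -0.15 to 0.18. P4ha1 and P4ha2, which encode the catalytic subunits of prolyl 4-hydroxylase that let the helix form, rose by 1.35 and 1.19 on the log2 scale with AM73 and by 1.13 and 1.28 with AM80 (limma adjusted p from 0.00191 to 0.0148). P3h1, a prolyl 3-hydroxylase, and Plod1, a lysyl hydroxylase, rose by 0.93 and 0.85 with AM80 (limma adjusted p = 0.00649 and 0.0107). With poly-A scaling, 5 of the 9 differences of AM80 kept their sign. P4ha1 and P4ha2 then stood at 0.29 and 0.44, but P3h1 and Plod1 at only 0.09 and 0.01. Plod2, the lysyl hydroxylase of telopeptides, was lower with AM80 than with AM73 (difference -1.64; limma adjusted p = 0.000994), while P3h1, Ppib and Fkbp10 were higher by 0.84, 0.79 and 0.76, signs that turned with poly-A scaling.

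Of 8 folding and export genes, 1 rose (12.5%) and 2 fell (25%) with AM80. The shares of all genes were 6.90% and 7.04%, and of genes with a mean of at least 4 they were 18.8% and 19.7%, so that these counts are no result about the list. Creb3l1, a transcription factor needed for type I collagen in bone, rose by 0.66 (limma adjusted p = 0.00943; -0.18 with poly-A scaling). Mia3, the receptor that loads procollagen for export, and Sec23a, a coat protein of the carriers, fell by 0.67 and 0.92 on the log2 scale (limma adjusted p = 0.0260 and 0.0166), also with poly-A scaling. Serpinh1, the collagen chaperone HSP47, was higher with AM80 than with AM73 by 0.40 (limma adjusted p = 0.0492; -0.72 with poly-A scaling).

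Of 12 genes of propeptide removal and cross-linking, 3 rose (25%) and 1 fell (8.33%) with AM80, against 18.8% and 19.7% of genes with a mean of at least 4. Lox, the lysyl oxidase that cross-links fibrils, fell by 1.60 on the log2 scale (limma adjusted p = 0.0106) and its relative Loxl1 rose by 0.52 (limma adjusted p = 0.0340). Pcolce and Pcolce2, enhancers of the proteinase that trims procollagen, both rose by 0.54 (limma adjusted p = 0.0185 and 0.0334). The rises of Loxl1, Pcolce and Pcolce2 turned to lower with poly-A scaling and the fall of Lox did not. Adamts2, which trims the other end of procollagen, was higher with AM80 than with AM73 by 0.83 (limma adjusted p = 0.0254; -0.29 with poly-A scaling).

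Of 12 fibril partners 1 fell with AM80, a share of 8.33%, near the 7.04% of all genes. Postn, which encodes periostin, fell by 2.18 on the log2 scale (limma adjusted p = 0.0134). Of 11 basement membrane partners, 0 passed with either compound against DMSO. With AM73, 6 lay wholly above DMSO (54.5%, against 5.71% of all genes) and 1 wholly below (9.09%, against 6.87%). With AM80, 5 lay wholly above (45.5%, against 14.9%) and 2 wholly below (18.2%, against 10.6%). Of genes with a mean of at least 4, 11.0% lay wholly above DMSO with AM73 and 32.4% with AM80. In the direct comparison, 3 of the 11 (27.3%) were lower with AM80 than with AM73. That compares with 9.22% of all genes and 24.7% of those with a mean of at least 4. The 3 were Nid1, the nidogen that ties laminin to type IV collagen, with a difference of -1.55 (limma adjusted p = 0.00101), and the laminin chains Lama4 and Lamc1, both with a difference of -0.53 (limma adjusted p = 0.0269 and 0.0381). Against DMSO, Nid1 differed by 1.10 with AM73 and by -0.45 with AM80. Among 13 genes of breakdown 1 fell with AM80 (7.69%, near the same share): Timp3, a metalloproteinase inhibitor, with a difference of -0.77 (limma adjusted p = 0.0381), with overlapping groups. Tnc (tenascin C) and Timp2 were higher with AM80 than with AM73 by 0.50 and 0.63, differences that turned to lower with poly-A scaling.

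Of 11 collagen receptors, 1 fell with AM80, a share of 9.09%, near the 7.04% of all genes. Ddr2, a receptor kinase for fibrillar collagens, fell by 1.47 on the log2 scale (limma adjusted p = 0.00375). Against AM73, Ddr2, Itga1 and Antxr2 were lower with AM80, with differences of -1.59, -1.16 and -1.08, and Ddr1 was higher by 0.67 (limma adjusted p from 0.00143 to 0.0202), which poly-A scaling turned to lower. Among 12 genes of TGF-β signalling, which is known to raise fibrillar collagen genes in fibroblasts, 1 rose (8.33%) and 2 fell (16.7%) with AM80, against 6.90% and 7.04% of all genes. Of genes with a mean of at least 4, 18.8% rose and 19.7% fell, so that these counts are no result about the list. Tgfb1 rose by 0.72 (limma adjusted p = 0.0134; -0.12 with poly-A scaling), and Skil, an inhibitor of SMAD proteins, and Smad2 fell by 1.79 and 0.44 (limma adjusted p = 0.00256 and 0.0374). Against AM73, Tgfbr1 was lower with AM80 (difference -1.20; limma adjusted p = 0.00951). With AM73 against DMSO, 0 genes passed in the 7 lists other than chain modification.

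**Figure D4:**
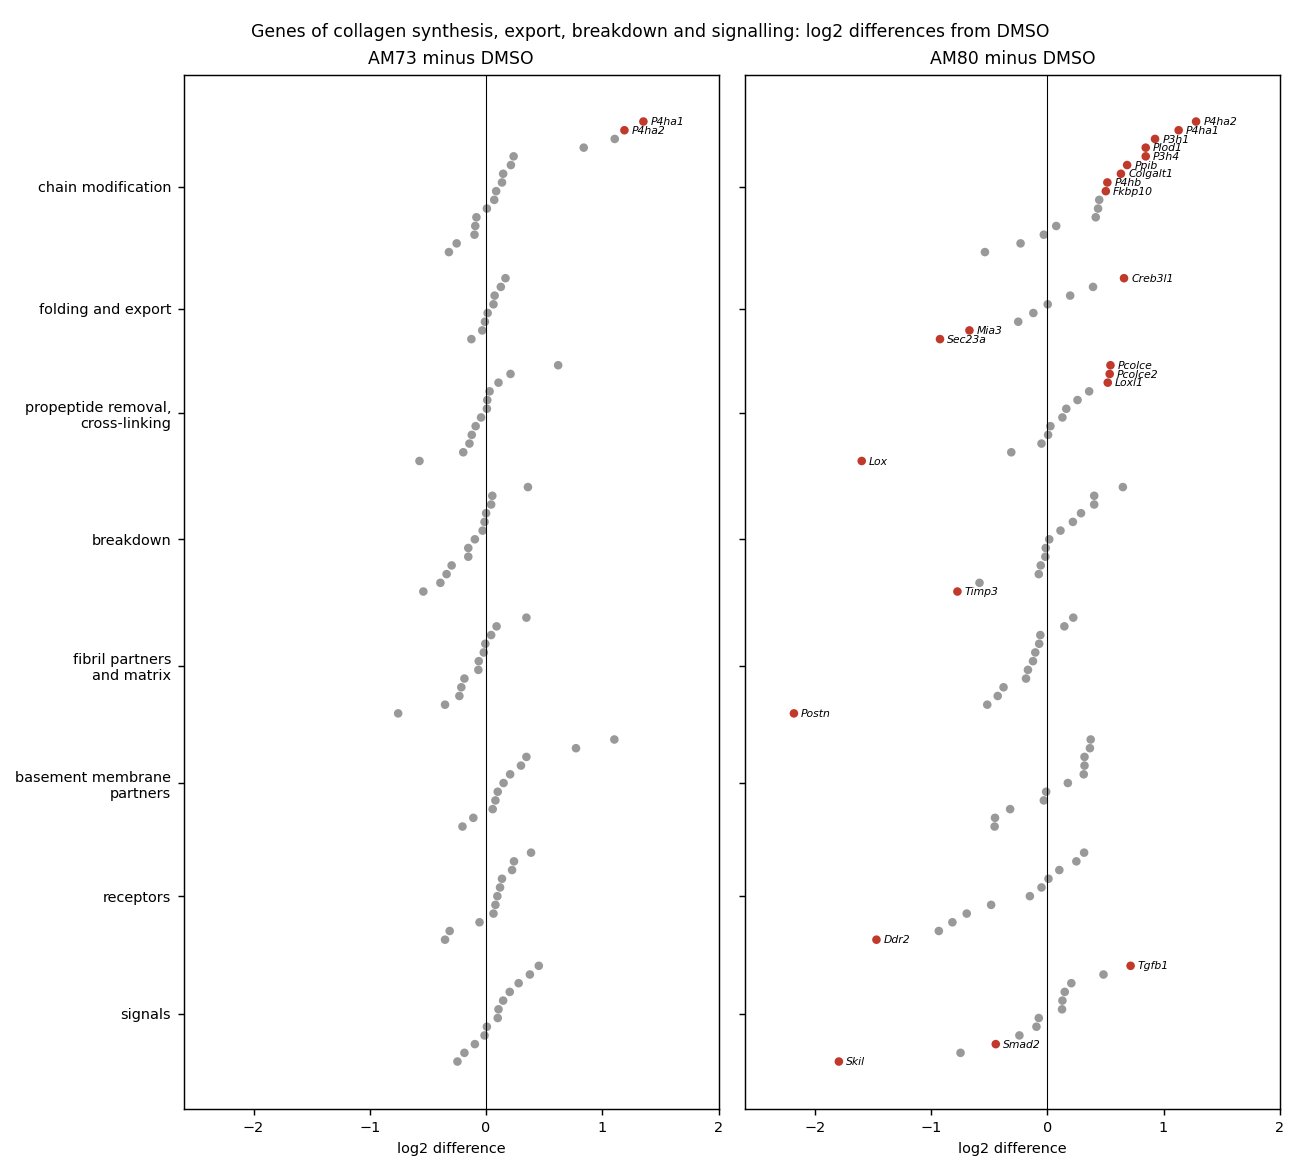
Log2 differences from DMSO (x axes) of the genes of 8 lists of collagen synthesis, export, trimming, breakdown, matrix partners, receptors and signals (y axis), 1 point per gene, sorted within a list, for AM73 (left) and AM80 (right). Red points with names have a limma adjusted p under 0.05. Red genes of AM73 are P4ha1 and P4ha2 alone, while AM80 has 22, of which 14 lie to the right of 0. Of those 14, 5 stay to the right with poly-A scaling, P4ha1 and P4ha2 at 0.29 and 0.44 but P3h1 and Plod1 at only 0.09 and 0.01.

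A few markers of other cells passed the test with AM80 beside these genes. Of the 14 preadipocyte and fibroblast markers, Vim and S100a4 rose by 0.48 and 1.29 on the log2 scale (limma adjusted p = 0.0252 and 0.00358) and Postn, which the list of fibril partners also holds, fell. That is 14.3% and 7.14%, against 6.90% and 7.04% of all genes and 18.8% and 19.7% of those with a mean of at least 4. The other 11 did not pass, among them Pdgfra, Pdgfrb and Ly6a, with differences of 0.01, 0.02 and -0.46. Of 9 skeletal muscle markers Acta1 rose by 0.90 (limma adjusted p = 0.00246), a share of 11.1% against 6.90% of all genes. Their sum on a linear scale was 105.7 to 126.9 in DMSO, 101.8 to 113.8 in AM73 and 137.9 to 190.5 in AM80, and 7 of the 9 had a mean under 4. Of the 8 markers of cartilage and bone, which make fibrillar collagen in other tissues, 0 passed. The part of these markers in the collagen results was not tested.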

How the data were processed

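The log2 values were used as deposited. Per the file headers and the submitters' processing notes they are RMA values (background corrected, quantile normalized, summarised by median polish) from Affymetrix Expression Console 1.41, and their annotation is NetAffx build 35, on mm10. The authors' deposited comparison table also holds group averages in linear intensity units, signed folds as a score, and p-value and q-value columns of a Student's t-test, per the file headers. How the q-value was made is not given in the sources used here. Of 41345 features 33793 were transcript clusters of the category main, 32202 of these had a symbol, and 30860 genes were left with 1 cluster each.

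All 9 arrays entered a single limma fit (3.58.1, lmFit and eBayes, R 4.3.3), with two-sided tests, Benjamini-Hochberg adjustment over all genes and a threshold of 0.05; the fit was tested on simulated data. Named are all collagen genes past the threshold in any comparison, 12 of types I, III, IV, V, VI, XV and XVIII always, and up to 4 genes of each pathway list with the smallest adjusted p per comparison. The members, lists and limits were chosen with earlier results of these data known. Replicate numbers did not pair arrays: deviations of equal numbers correlated from -0.30 to 0.07 across genes. Promoter windows are RefSeq's (GRCm38.p6), read with pandas 2.3.3. Figures were drawn with matplotlib 3.10.9.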

Additional observations from a re-analysis of the deposited data

How the results depend on the processing

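The numbers of collagen genes past the threshold were 0 for AM73 against DMSO, 3 for AM80 against DMSO and 6 for AM80 against AM73, and only these counts and the named genes were recomputed. For AM73 the count was 0 under all alternatives except the methods' t-test without adjustment (3, against 2013 of all genes). For AM80 against DMSO it was 5 above the 40th percentile of level, with 4944 called of the fewer, 18510, genes tested. It was also 5 without cross-hybridising genes, with 4300 called of 27445. For the other settings, calls among all 30860 genes follow in brackets. The count was 4 with quantile normalization again (4506) and with trend and robust moderation (4128), and 3 with arrays centred on their medians (3980). It was 9 with array weights (5728), 8 with the methods' t-test without adjustment (5292) and 32, all falls, with poly-A scaling (24198 falls). It was 0 with only the groups compared (2086), the array-name number as a term (1440), the bright antigenomic covariate (2403) and a fold of at least 1.5 (3365). It was also 0 with the methods' t-test after Benjamini-Hochberg and the authors' deposited q-value, where only 4 and 5 of all genes were called. At an unadjusted p under 0.05 the limma fit called 11, against 7757 of all genes. For AM80 against AM73 the count was 9 above the 40th percentile, with 6468 called of 18510 genes tested. Brackets again hold the calls among all 30860 genes. It was 7 with quantile normalization again (6231), 2 with centring (5424) and 41 falls with poly-A scaling (28175 falls). It was 5 with only the groups compared (5138), 3 with the number as a term (3513) and 10 with array weights (6700). It was 0 with the covariate, where 0 of all genes were called. The methods' t-test gave 2 (1809) after and 8 (7012) without adjustment, the deposited q-value 3 (3475) and the fold limit 1 (4589). With 1 array left out the counts ran from 0 to 0, 0 to 6 and 1 to 7. Among all genes the calls then ran from 0 to 37, 1740 to 5226 and 4164 to 6453. The replicate block gave 0, 0 and 5 calls for the 3 comparisons, against 6, 2999 and 5063 among all genes. Equal replicate numbers are no pairs by the check of deviations. No AM80 value exists within number 7. Scaling to the poly-A controls reversed the sign of Col6a1 (-0.43), Col4a1 (-0.45), Col6a2 (-0.39), Col1a1 (-0.63), Col5a1 (-0.73), Col4a2 (-0.33), Col1a2 (-0.48), Col3a1 (-0.39), Col6a3 (-0.57), Col6a4 (-0.52), Col15a1 (-0.54) and Col18a1 (-0.23) for AM80 minus DMSO. For AM80 minus AM73 it reversed Col6a1 (-0.75), Col4a1 (-0.67), Col4a2 (-0.56), Col6a2 (-0.68), Col6a4 (-0.78), Col1a2 (-0.65), Col3a1 (-0.73), Col5a1 (-1.0), Col5a2 (-1.08) and Col6a3 (-1.07), as well as Col1a1 (-0.51) and Col18a1 (-0.54). The shift of all genes by that scaling accounts for these signs by construction, and the cause of the other changes was not tested.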
